A study of Rattus norvegicus with 6 samples.

Results

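Metalloproteinases of the MMP, ADAM and ADAMTS families, with their TIMP inhibitors, were followed in primary rat oligodendrocyte progenitor cells (OPCs) exposed to fibrinogen. The members were all genes in the array's probe annotation whose symbol starts with Mmp, Adam or Timp and a digit, or with Adamts. The annotation held 56 such genes, 55 of them with values and 1, Adam18, blank on every array. The 55 comprised 20 Mmp, 17 Adam, 14 Adamts or Adamtsl and 4 Timp genes, of 13949 genes tested. The fibrinogen group was 3 samples of OPCs stimulated for 12 h, and the control group was 3 samples of unstimulated OPCs with the same time in their titles. The cells were taken from newborn rats (postnatal day 1-2), and all had recovered in a DMEM-based proliferation medium with N2, B27, penicillin-streptomycin, NT3 and PDGF. Neither a strain nor a fibrinogen dose is given in the sources used here, and nothing says that replicates were separate cultures, so the p-values cover the spread between the arrays at hand, which may be technical.

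Metalloproteinases cut proteins with a zinc ion held in their active site. MMPs are made as inactive precursors and cleave matrix proteins, some from the cell surface and most after secretion. ADAMs are membrane proteins, many of which shed the outer part of other membrane proteins, while ADAMTS enzymes are secreted and several of them cleave the proteoglycans that fill the brain's matrix. TIMPs bind the active site and block it, with TIMP3 acting on ADAMs and ADAMTS enzymes as well as on MMPs. In OPCs such enzymes are known for their part in migration, in the shedding of NG2 (the product of Cspg4) and in process outgrowth.

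Values are log2 levels, 1 per probe set and array, so that a difference of 1 is a doubling. A level says nothing of the absolute amount, and levels of different genes were not set against each other. As a mark of background, the 95th percentile of 954 olfactory and vomeronasal receptor genes was a log2 level of 5.51. The mean of the values over all arrays lay above this mark for 32 of the 55 members (58.2%), against 71.3% of all genes. Distances of an array's genes to the mean of its group had an SD of 0.114, 0.146 and 0.110 on the arrays of fibrinogen replicates 1, 2 and 3, against 0.0862 to 0.0939 on the control arrays. Fibrinogen replicate 2 thus had the widest spread over all genes, and results that rest on it are given with and without it. Among the 55 members it stood out less, with an SD of 0.137 against 0.106 to 0.124 on the other arrays. Of 7 measured OPC markers all lay above the receptor percentile, among them Pdgfra, Sox10 and Olig1. With 3 arrays a group, precision is limited by their number.

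The promoter letters of 2 sets of members are shown first: Mmp genes that stayed near background, because they share a known site, and the inhibitor genes with the largest differences. RefSeq promoter windows (build GRCr8, up to 250 bases before the start) were available for 36 of the 55 members and searched on both strands. The AP-1 letters TGANTCA, the classic site of the Fos and Jun factors in Mmp promoters, were found in 7 of the 36 windows (19.4%), against 6.34% of all 33469 windows. The 7 were Mmp1, Mmp3, Mmp7, Mmp10, Mmp12, Mmp13 and Mmp20, which lie in 1 stretch of chromosome 8 together with Mmp8 and Mmp27, whose windows hold no match. None of these 7 had a mean level above the receptor percentile, and 0 of the 22 windows of members above it held the letters. With a share of 6.34% over all windows, 0 of 22 does not set those members apart. The 19 members without a window could not be searched, among them Mmp2, Mmp9, Mmp14, Mmp16, Mmp19, Adam9 and Adamts5. Of the 14 windows of members not above the percentile, 7 held the letters, all of them in this 1 stretch of neighbouring genes. Shared neighbourhood and low level cannot be told apart here, and a link between the letters and the levels was not tested. Each line below gives the 10 bases on either side, 5′ to 3′, with the AP-1 letters in capitals.
Mmp1 (chr8:12943359-12943385, + strand): ttgtcaaccaTGAGTCAcgtagcctct
Mmp3 (chr8:12925200-12925226, + strand): gaagcaattaTGAGTCAgtttgcgggt
Mmp7 (chr8:13132953-13132979, + strand): agcatgagaaTGAGTCAccgattccca
Mmp10 (chr8:12974636-12974662, + strand): agcacccacaTGAGTCAtgcttagtga
Mmp12 (chr8:12866555-12866581, + strand): acatcaacagTGAGTCAtattgaggat
Mmp13 (chr8:12782753-12782779, + strand): ccccaagtggTGACTCAtcactattgc
Mmp20 (chr8:13074173-13074199, + strand): atttgagacaTGAATCAtcacttgcag
The Mmp1 window held a second match, TGAATCA, 242 bases before the start. The matches printed above began 61 to 96 bases before it.

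The windows of Timp4 and Timp1 hold no TGANTCA. The related letters TGAGTAA, known as a site of the same factors in the mouse and human Timp1 promoters, were found in 2 of the 36 member windows (Timp1 and Mmp3) and in 2.38% of all windows. They are in capitals in the Timp1 line, where they begin 108 bases before the start.
Timp4 (chr4:149985205-149985454, - strand): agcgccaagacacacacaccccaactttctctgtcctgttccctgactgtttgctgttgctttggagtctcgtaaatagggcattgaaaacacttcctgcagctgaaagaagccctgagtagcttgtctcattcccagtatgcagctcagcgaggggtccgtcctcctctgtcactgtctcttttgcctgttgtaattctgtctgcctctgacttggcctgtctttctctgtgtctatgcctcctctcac
Timp1 (chrX:3771123-3771372, - strand): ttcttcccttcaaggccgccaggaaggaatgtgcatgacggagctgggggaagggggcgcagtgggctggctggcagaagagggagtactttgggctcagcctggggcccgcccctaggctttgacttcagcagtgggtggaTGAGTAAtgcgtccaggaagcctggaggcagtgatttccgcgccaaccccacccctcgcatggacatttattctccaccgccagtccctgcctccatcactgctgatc
The GC-rich letters GGCGCC, bound by the Smads of BMP signaling, stood in 7 of the 36 member windows and in 8.69% of all windows, and neither Timp window held them. The Smad letters CAGAC stood in 11 of the 36, Timp4 included, and in 42.9% of all. Bases of Timp4 were 50.8% G or C and those of Timp1 61.2%. These matches describe the letters only, and the searches other than that for TGANTCA were added after the values were seen.

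Of the 55 members, 1 passed the test over all genes, and it rose: Timp4, with 0 lower and 54 not past the threshold (limma, Benjamini-Hochberg adjusted p under 0.05). Over all 13949 genes 3.10% passed, 1.81% higher and 1.29% lower, so the members' share of 1.82% was not above the background. At an unadjusted p under 0.05, 9 members were higher and 4 lower, which is 16.4% and 7.27% of the 55, against 8.12% and 7.46% of all genes (15.6% in either direction). The arrays did not overlap in 9 members with higher and 3 with lower fibrinogen values (16.4% and 5.45%), against 10.7% and 10.6% of all genes. The members' median log2 difference was 0.06 and that of all genes -0.0033. Positive differences were found for 38 members, negative ones for 16, and Mmp28 had a difference of 0. Over all 13949 genes 6761 differences were positive and 7031 negative. Positive were 22 of the 32 members above the receptor percentile and 16 of the 23 not above it, so members near background shared the excess. Centring each array on its median lowered every difference by the same amount, that of Timp4 from 0.61 to 0.58. No test was made of the excess. The plot of all differences shows them by role.

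**Figure D1:**
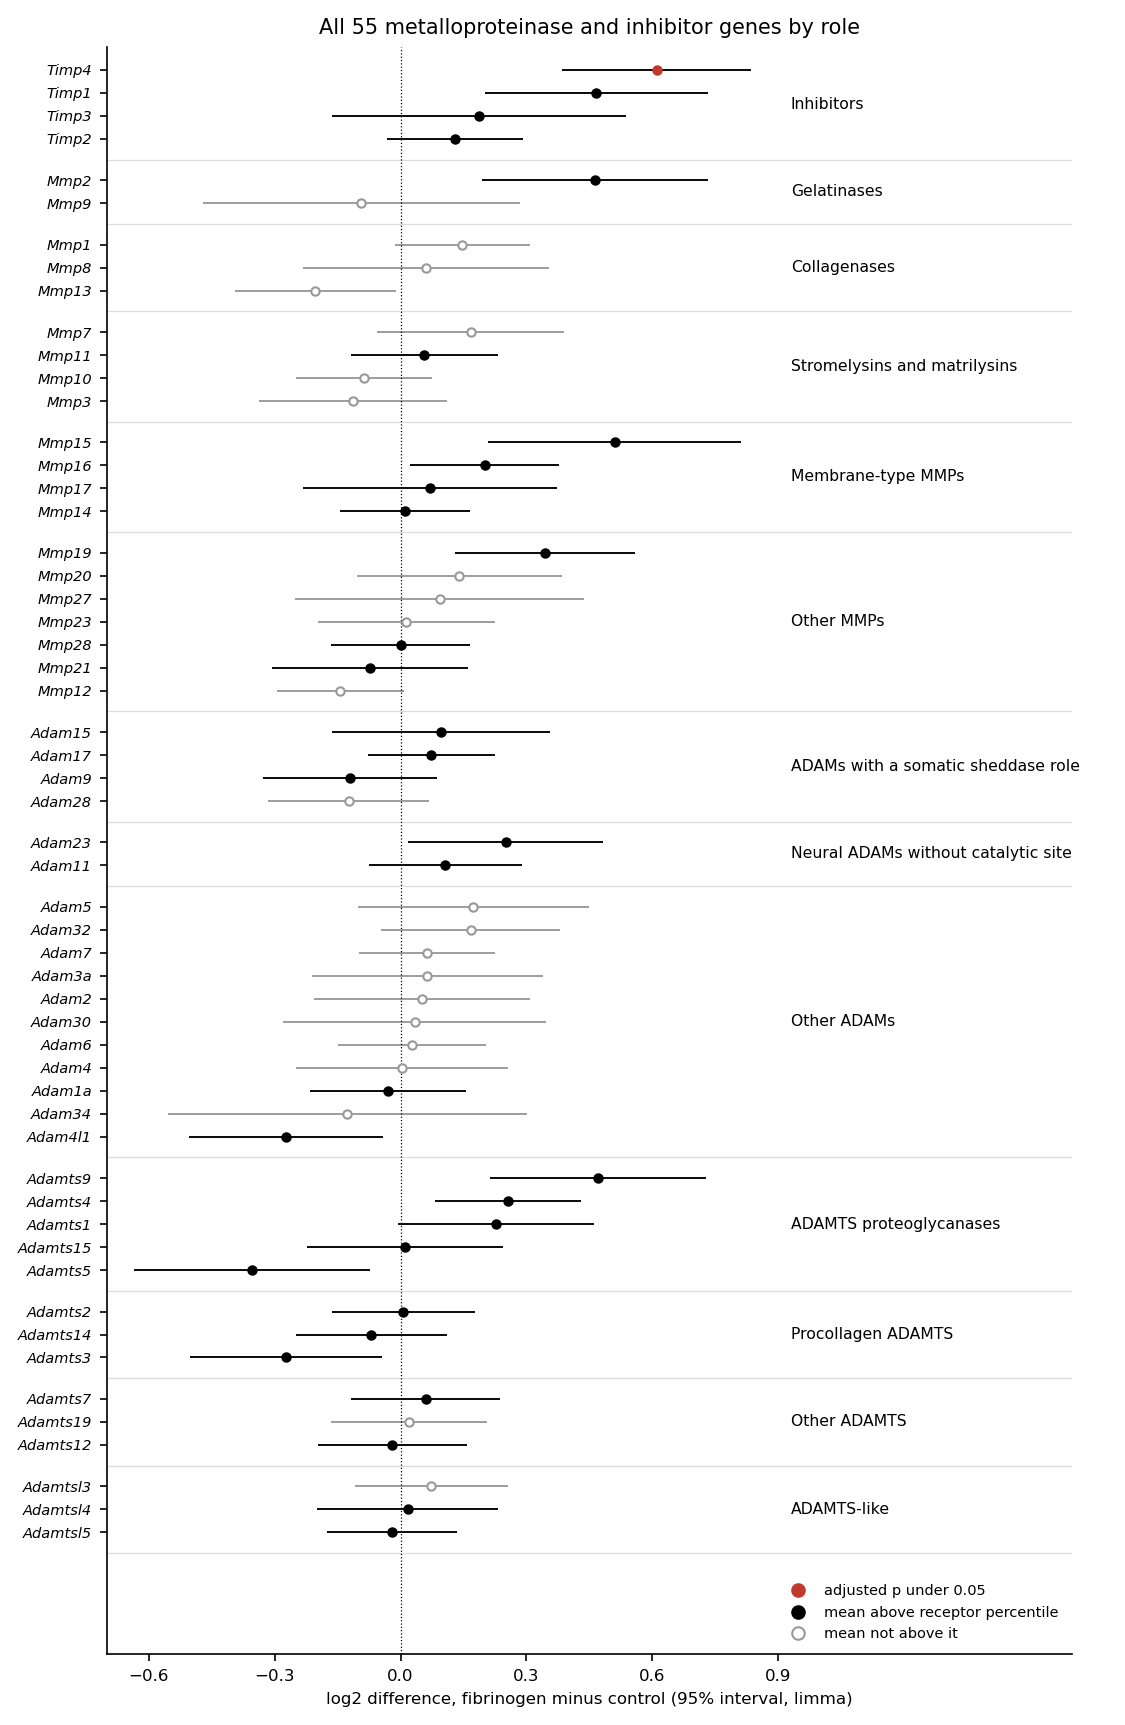
Log2 difference of each of the 55 genes, fibrinogen minus control, with its 95% interval from limma (x axis), grouped by role down the page; the red point passed the test, open grey points have a mean not above the receptor percentile. Timp4 is the red point at 0.61, and the values of the other genes lie between -0.35 and 0.51.

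The 4 inhibitors had positive differences, from 0.13 to 0.61 on the log2 scale, and 1 of them passed. Timp4, an inhibitor known for its high expression in heart and brain, had log2 levels of 9.18, 8.94 and 9.16 on the fibrinogen arrays, against 8.62, 8.34 and 8.49 on the control arrays (probe set 10864732). All fibrinogen values lay above all control values. Timp4 rose 1.53-fold, with a log2 difference of 0.61 ± 0.10 (SE; limma, adjusted p = 0.0147). The call held without fibrinogen replicate 2 (adjusted p = 0.0148) or control replicate 1 (0.0285). It was lost without fibrinogen replicate 1 or 3 (adjusted p = 0.0581 and 0.0527) and without control replicate 2 or 3 (0.0664 and 0.0691), while the difference stayed between 0.54 and 0.69.

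Timp1, the inhibitor that glia and many other cells induce after injury, had log2 levels of 10.59, 10.20 and 10.64 with fibrinogen, against 10.08, 9.94 and 10.01 in controls. The groups did not overlap, and fibrinogen replicate 2 lay nearest to the controls. The log2 difference was 0.47 ± 0.12 (SE), or 1.38-fold, and did not pass (adjusted p = 0.0764, limma). Without fibrinogen replicate 2 it was 0.61 (0.605 before rounding), with an adjusted p of 0.00861, and without each of the other arrays the adjusted p was 0.178 to 0.251.

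Timp2, which is needed on the cell surface for the activation of MMP2 by MMP14, had log2 levels of 10.17, 10.23 and 10.10 with fibrinogen, against 10, 10.01 and 10.10 in controls. The highest control and the lowest fibrinogen array shared the value 10.10. Its log2 difference of 0.13 had a 95% interval from -0.03 to 0.29 (adjusted p = 0.439, limma). Timp3, the matrix-bound inhibitor of ADAM17 and of the aggrecanases, had 9.10, 9.56 and 9.21 with fibrinogen, against 8.80, 9.30 and 9.21 in controls. Its groups overlapped, with an interval from -0.16 to 0.54 around a log2 difference of 0.19 (adjusted p = 0.641), an interval that includes the difference measured for Timp1.

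**Figure D2:**
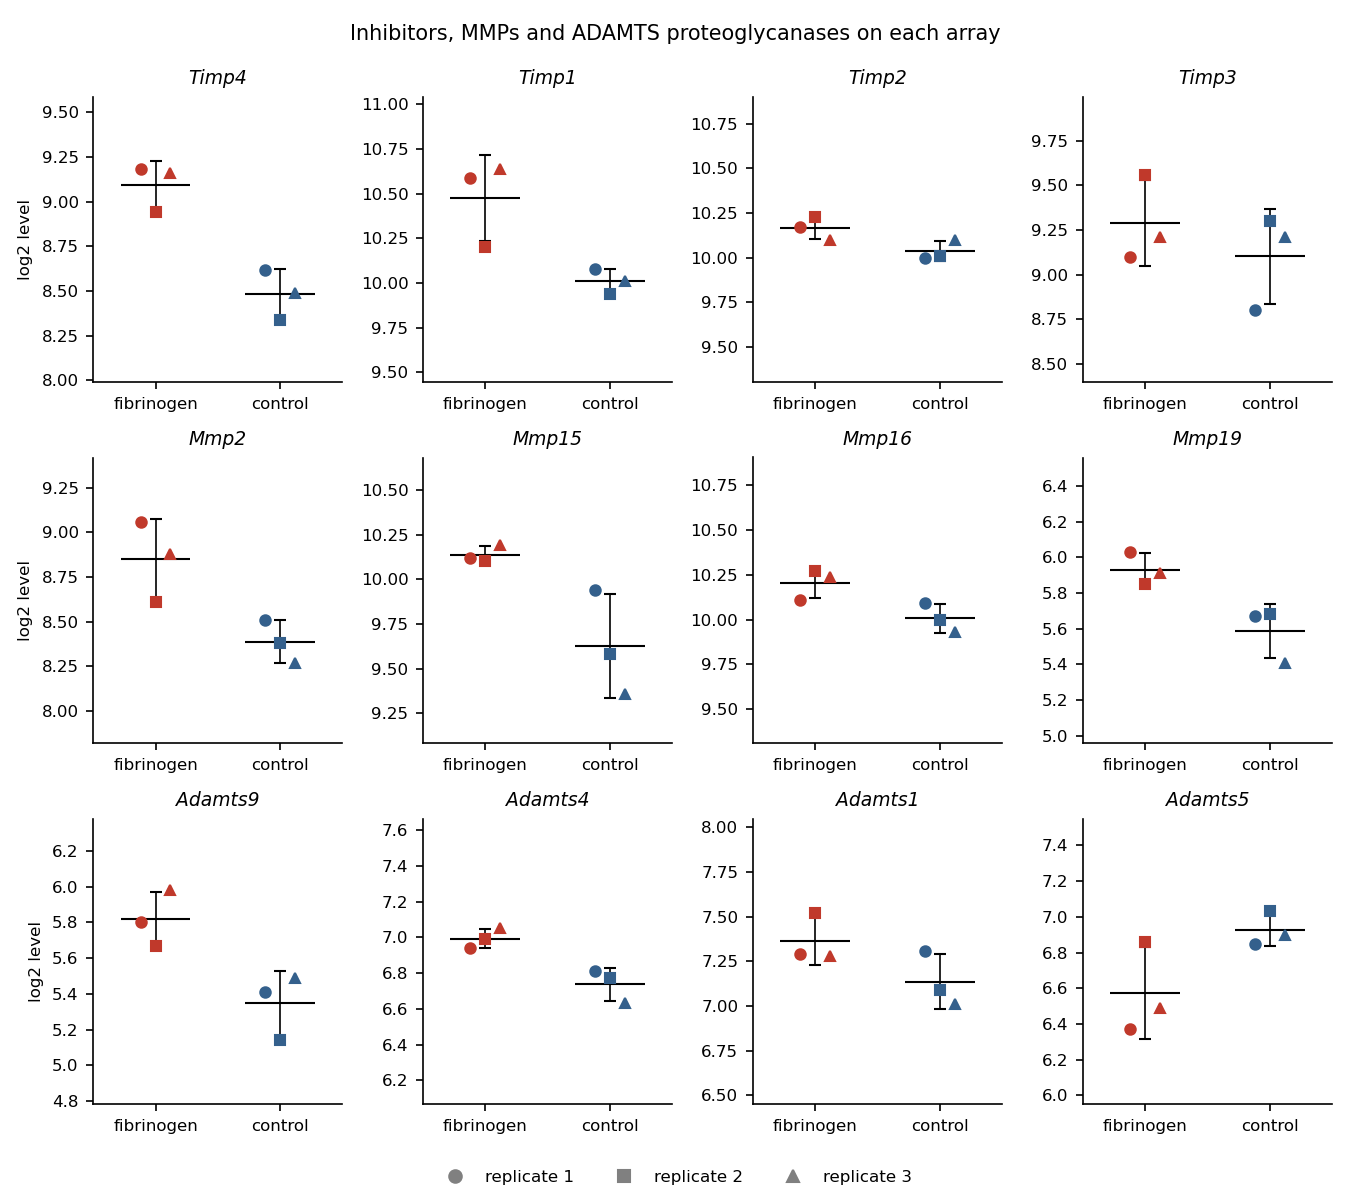
Log2 level of 12 genes (y axis, each panel spanning 1.6 log2 units) on the fibrinogen arrays and the control arrays; points are arrays with 1 symbol per replicate number, the long line is the group mean and the bars are ± 1 SD (n = 3). Fibrinogen and control points are apart in Timp4, Timp1, Mmp2, Mmp15, Mmp16, Mmp19, Adamts9 and Adamts4, and fibrinogen replicate 2 (square) lies within the range of the controls in Adamts5.

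Among the MMPs, 0 of 20 passed the test in limma, and an unadjusted p under 0.05 was reached by 4 with higher values and 1 with lower values. MMP2 and MMP9 are the gelatinases, which cut denatured collagen and basement membrane. Mmp2 had log2 levels of 9.06, 8.61 and 8.88 on the fibrinogen arrays, against 8.51, 8.38 and 8.27 on the control arrays. The groups did not overlap, and again fibrinogen replicate 2 was closest to the controls. The log2 difference was 0.46 ± 0.12 (SE), or 1.38-fold, and did not pass (limma, adjusted p = 0.0821). Without fibrinogen replicate 2 it was 0.58 and passed (adjusted p = 0.0276), whereas without each of the other arrays the adjusted p was 0.147 to 0.262. Mmp9 had 4.75, 4.88 and 4.96 with fibrinogen, against 5.02, 4.55 and 5.30 in controls. All of these lay below the receptor percentile, so Mmp9 was not distinguished from background in either group. Its log2 difference of -0.09 had an interval from -0.47 to 0.29.

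Membrane-type MMPs stay anchored at the cell surface. Mmp15 had log2 levels of 10.12, 10.10 and 10.19 with fibrinogen, against 9.94, 9.58 and 9.36 in controls. The fibrinogen arrays lay close together above spread-out controls. The log2 difference of 0.51 ± 0.13 (SE), or 1.42-fold, did not pass (adjusted p = 0.0859, limma). It passed without control replicate 1, the highest control (0.67, adjusted p = 0.0214), and had an adjusted p of 0.138 to 0.256 without each of the other arrays. Mmp16 had 10.11, 10.27 and 10.24 with fibrinogen, against 10.09, 10 and 9.93 in controls. The groups were just apart, with fibrinogen replicate 1 and control replicate 1 next to each other. Its log2 difference was 0.20 ± 0.08 (SE, adjusted p = 0.259). Mmp14, the main activator of MMP2, had 6.69, 6.63 and 6.74 with fibrinogen, against 6.69, 6.70 and 6.64 in controls. The groups overlapped fully, with a log2 difference of 0.01 and an interval from -0.14 to 0.16. Mmp17 had a log2 difference of 0.07 with an interval from -0.23 to 0.37.

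Of the other MMPs, Mmp19 had log2 levels of 6.03, 5.85 and 5.91 with fibrinogen, against 5.67, 5.68 and 5.41 in controls. Groups were apart, with a log2 difference of 0.34 ± 0.09 (SE; limma, adjusted p = 0.105), at levels around the receptor percentile, with control replicate 3 below it. Mmp11, the stromelysin that is activated inside the cell, had a log2 difference of 0.06 (interval from -0.12 to 0.23), and Mmp21 one of -0.07 (interval from -0.31 to 0.16). The collagenases Mmp1, Mmp8 and Mmp13 and the stromelysins and matrilysins Mmp3, Mmp7 and Mmp10 were not above the receptor percentile, and those other than Mmp13 had log2 differences from -0.11 to 0.17. Mmp13, also a collagenase, had log2 levels of 2.78, 2.81 and 2.82 on the fibrinogen arrays, against 3.17, 2.92 and 2.93 on the control arrays. Its log2 difference of -0.20 had an unadjusted p of 0.0403 and an adjusted p of 0.288, with every array below the receptor percentile. The 5 further MMPs (Mmp12, Mmp20, Mmp23, Mmp27 and Mmp28) had log2 differences from -0.14 to 0.14, and the arrays of Mmp1 (0.15) and Mmp12 (-0.14) did not overlap, both at background levels.

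Of the ADAM genes 0 of 17 passed in limma, and an unadjusted p under 0.05 was reached by Adam23, with higher values, and Adam4l1, with lower values. Adam17, the sheddase that releases TNF and EGF receptor ligands, had log2 levels of 7.99, 8.06 and 8.05 with fibrinogen, against 7.92, 7.99 and 7.97 in controls. Its arrays met at 7.99, and the log2 difference of 0.07 had an interval from -0.08 to 0.22 (adjusted p = 0.678, limma). Adam9 had 8.77, 9.03 and 8.73 with fibrinogen, against 8.97, 9.0 and 8.92 in controls, a log2 difference of -0.12 (interval from -0.33 to 0.09). Adam15 had a log2 difference of 0.10 (interval from -0.16 to 0.36), and Adam28, not above the receptor percentile, one of -0.12. Adam10, the other main sheddase, was not analysed here.

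The neural ADAMs without catalytic activity serve as receptors for LGI proteins. Adam23 had log2 levels of 7.33, 7.64 and 7.62 on the fibrinogen arrays, against 7.19, 7.40 and 7.25 on the control arrays. Fibrinogen replicate 1 lay within the controls, and the log2 difference was 0.25 ± 0.10 (SE, adjusted p = 0.280, limma). Adam11 had a log2 difference of 0.11 with an interval from -0.08 to 0.29. Adam4l1 had 5.40, 5.49 and 5.75 with fibrinogen, against 5.72, 5.90 and 5.84 in controls, with overlapping groups and a log2 difference of -0.27 ± 0.10 (SE, adjusted p = 0.233). Fibrinogen replicates 1 and 2 of Adam4l1 lay below the receptor percentile of 5.51. Of the 11 ADAMs outside the sheddase and neural groups, most of them known from the male reproductive tract, 9 were not above the receptor percentile, and Adam1a, which was above it, had a log2 difference of -0.03. The 9 had log2 differences from -0.13 to 0.17.

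Of the 5 ADAMTS proteoglycanases 0 passed in limma; at an unadjusted p under 0.05, Adamts9 and Adamts4 had higher values and Adamts5 lower ones. Adamts9 had log2 levels of 5.80, 5.67 and 5.98 on the fibrinogen arrays, against 5.41, 5.14 and 5.49 on the control arrays. All fibrinogen values lay above the controls, which were themselves below the receptor percentile of 5.51. The log2 difference of 0.47 ± 0.11 (SE) did not pass (limma, adjusted p = 0.0693), and it is no exact size, since the controls were not above background. Adamts4, an aggrecanase that cuts brevican and neurocan, had 6.94, 6.99 and 7.05 with fibrinogen, against 6.81, 6.77 and 6.63 in controls. Those groups were also apart, with a log2 difference of 0.26 ± 0.08 (SE, adjusted p = 0.132). Adamts1 had 7.29, 7.52 and 7.28 with fibrinogen, against 7.31, 7.09 and 7.01 in controls, where control replicate 1 exceeded 2 of the fibrinogen arrays. Its log2 difference was 0.23 (interval from -0.01 to 0.46).

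Adamts5, the other main aggrecanase, had the lowest difference of the 55. Its log2 levels were 6.37, 6.86 and 6.49 with fibrinogen, against 6.85, 7.03 and 6.90 in controls. Fibrinogen replicates 1 and 3 lay below the controls and replicate 2 within them. The log2 difference was -0.35 ± 0.12 (SE), or 0.783 of the control level, and did not pass (adjusted p = 0.203, limma). Without fibrinogen replicate 2 it was -0.50 and passed (adjusted p = 0.0275), while without each of the other arrays the adjusted p was 0.334 to 0.478. Adamts15 had a log2 difference of 0.01 (interval from -0.22 to 0.24). No test compared Adamts5 with the other proteoglycanases.

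Among the procollagen-processing ADAMTS genes, the 2 probe sets of Adamts3 disagreed. The brighter one gave log2 levels of 5.59, 5.66 and 5.29 with fibrinogen, against 5.82, 5.74 and 5.80 in controls, a difference of -0.27 ± 0.10 (SE, adjusted p = 0.228, limma). The dimmer one gave 5.35, 5.48 and 5.46, against 5.09, 5.29 and 5.24, a difference of 0.22 in the other direction. Every value of the dimmer one and fibrinogen replicate 3 of the brighter one lay below the receptor percentile of 5.51. With the probe sets averaged the difference was -0.03, so Adamts3 has no settled direction. Adamts14 and Adamts2 had differences of -0.07 and 0.01. Adamts7, Adamts12 and Adamts19 ranged from -0.02 to 0.06, and the 3 Adamtsl genes, relatives without a protease domain, from -0.02 to 0.07.

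Without fibrinogen replicate 2, 4 members passed (Timp1, Timp4 and Mmp2 higher, Adamts5 lower), and with arrays weighted by their own spread 5 passed, the same 4 and Adamts9. Over all 13949 genes, 436 passed without fibrinogen replicate 2 and 659 with array weights, against 432 in the main fit. Without each of the other arrays the count over all genes was 151 to 280. Without fibrinogen replicate 1 or 3 or control replicate 2 or 3, 0 members passed in limma, and 2 did without control replicate 1 (Timp4 and Mmp15). The plot of adjusted p by setting shows these shifts for the 6 genes concerned.

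**Figure D3:**
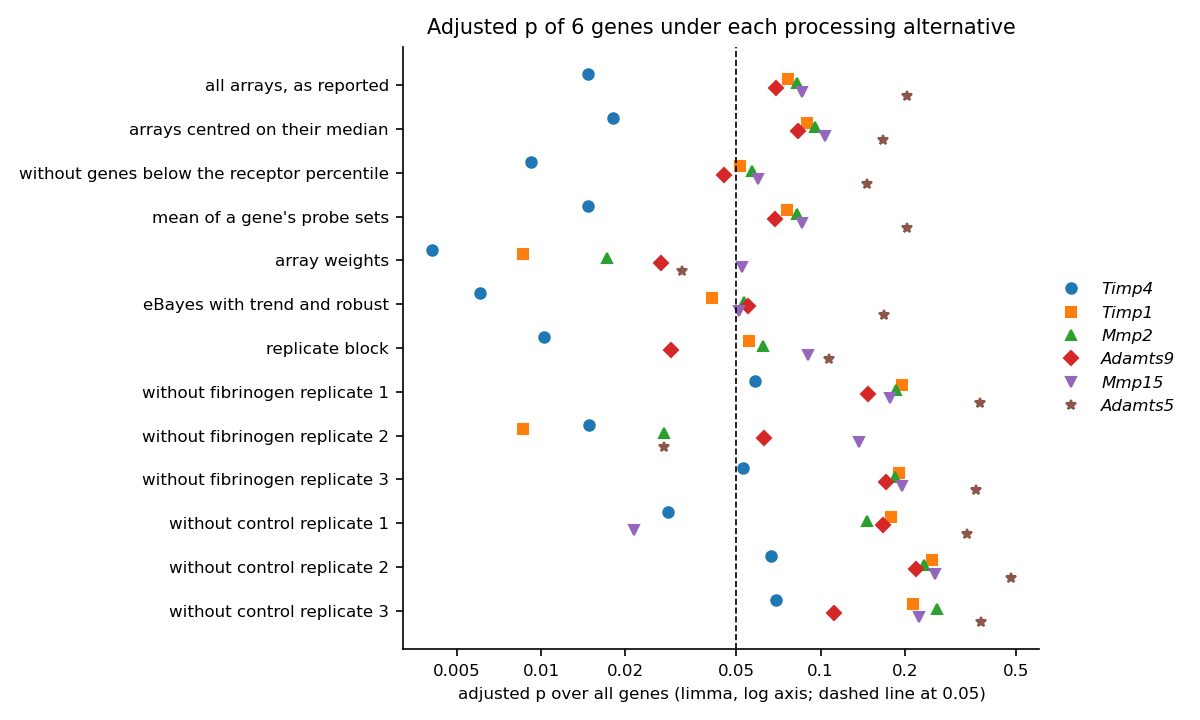
Adjusted p from limma (x axis, log scale, dashed line at 0.05) for 6 genes with all 6 arrays and under 12 alternatives (rows). Timp4 lies left of the line under 8 of the 12, and Timp1, Mmp2 and Adamts5 cross it both with array weights and without fibrinogen replicate 2.

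Other cell types that such a culture could hold were read from their markers. Of 7 measured astrocyte markers 2 rose, Gfap (log2 difference 1.24) and Slc1a2 (0.65). Aldoc and Slc1a3 were also higher at an unadjusted p under 0.05 (limma, 0.0280 and 0.0423) but did not pass. The rest of the list moved little, with log2 differences of 0.01 for Aqp4, -0.04 for Gja1 and 0.08 for Gjb6. Gjb6 was not above the receptor percentile. The mean log2 level of the list was 8.14 to 8.29 on the fibrinogen arrays, against 7.85 to 7.94 on the control arrays. It was 8.24, 8.14 and 8.29 on fibrinogen replicates 1, 2 and 3, so replicate 2 was lowest there, as it was for Timp4, Timp1 and Mmp2. The genes of the list differed in this. Among the fibrinogen arrays Gfap, Aldoc, Gja1 and Gjb6 were lowest on replicate 2, Aqp4 and Slc1a2 in between, and Slc1a3 highest. The OPC marker list moved the other way, with 4 of 7 lower (Pdgfra, Cspg4, Gpr17 and Neu4). Its mean was 10.29, 10.20 and 10.37 on fibrinogen replicates 1, 2 and 3, against 10.60 on each control array. Replicate 2 was thus the lowest of the fibrinogen arrays in the OPC list too, and what placed it low in either list was not tested. None of 9 microglia, 4 endothelial or 6 pericyte and fibroblast markers passed in limma. Neither did any of 5 markers of myelinating oligodendrocytes or 7 of neurons, and 0 of all these had an unadjusted p under 0.05. The neuron mean was 7.19, 7.35 and 7.23 on fibrinogen replicates 1, 2 and 3, against 7.18 to 7.20 on the control arrays, so replicate 2 was highest there. On that array Syt1, a synaptic vesicle gene, had a log2 level of 8.58, against 7.60 to 7.65 on the other 5. The mean of the myelinating list was 7.29 to 7.39, against 7.27 to 7.35. The microglia mean was 5.29 to 5.36, against 5.30 to 5.38, with Aif1, C1qa, Csf1r, Itgam and Ptprc not above the receptor percentile. The endothelial mean was 4.95 to 4.97, against 4.89 to 4.93, and the pericyte and fibroblast mean 5.65 to 5.85, against 5.78 to 5.84. The part of these lists in the members' differences was not tested, and in such bulk samples more cells of a type and more RNA per cell cannot be told apart.

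Regulators and substrates of metalloproteinases were taken from 5 lists drawn up for their biochemistry, with 85 of 104 genes measured and 8 past the test (9.41%), 6 higher and 2 lower in limma. This compares with 3.10% of all genes. Several of these genes were known from earlier results of these data, so the share is a description. Their median log2 difference was 0.03.

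Of 14 measured matrix and surface substrates 1 rose and 1 fell. Ncan, which encodes neurocan, a brain proteoglycan cut by MMP2 and by ADAMTS4, had log2 levels of 10.09, 9.90 and 10.07 with fibrinogen, against 9.10, 9.19 and 9.11 in controls. Every fibrinogen array lay far above the controls, and Ncan rose 1.85-fold (log2 difference 0.89 ± 0.08, SE, adjusted p = 0.00122, limma). Cspg4, which encodes NG2, a surface proteoglycan shed by ADAM10, had 9.02, 8.90 and 9.08 with fibrinogen, against 9.41, 9.36 and 9.29 in controls. It fell to 0.783 of the control level (adjusted p = 0.0467), a call lost whichever array was left out (adjusted p = 0.0670 to 0.179) and with the replicate number as a block (0.0895). The other 12 included Bcan, Vcan and Tnr, and 11 of the 14 had negative differences, against 7031 of all 13949 genes.

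Of 31 measured membrane proteins known to be shed by ADAMs, 2 rose and 2 fell, Cspg4 among them. Cd44, a hyaluronan receptor that anchors MMP9 at the cell surface, had log2 levels of 7.35, 7.48 and 7.41 with fibrinogen, against 6.41, 6.20 and 6.28 in controls. It rose 2.17-fold (adjusted p = 0.000449, limma). Fgfr2, a receptor for fibroblast growth factors, had 6.77, 6.77 and 6.76, against 6.32, 6.34 and 6.28 in controls. It rose 1.37-fold (adjusted p = 0.00816), a call that was lost without control replicate 3 (0.0545). Lrp1, which is both shed and an endocytic receptor that clears MMPs and TIMPs from the cell surface, had 8.38, 8.49 and 8.62, against 8.87, 8.96 and 8.97 in controls. Lrp1 fell to 0.739 of the control level (adjusted p = 0.0277), a call that held without fibrinogen replicate 3 and had an adjusted p of 0.0528 to 0.124 without each of the other arrays.

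**Figure D4:**
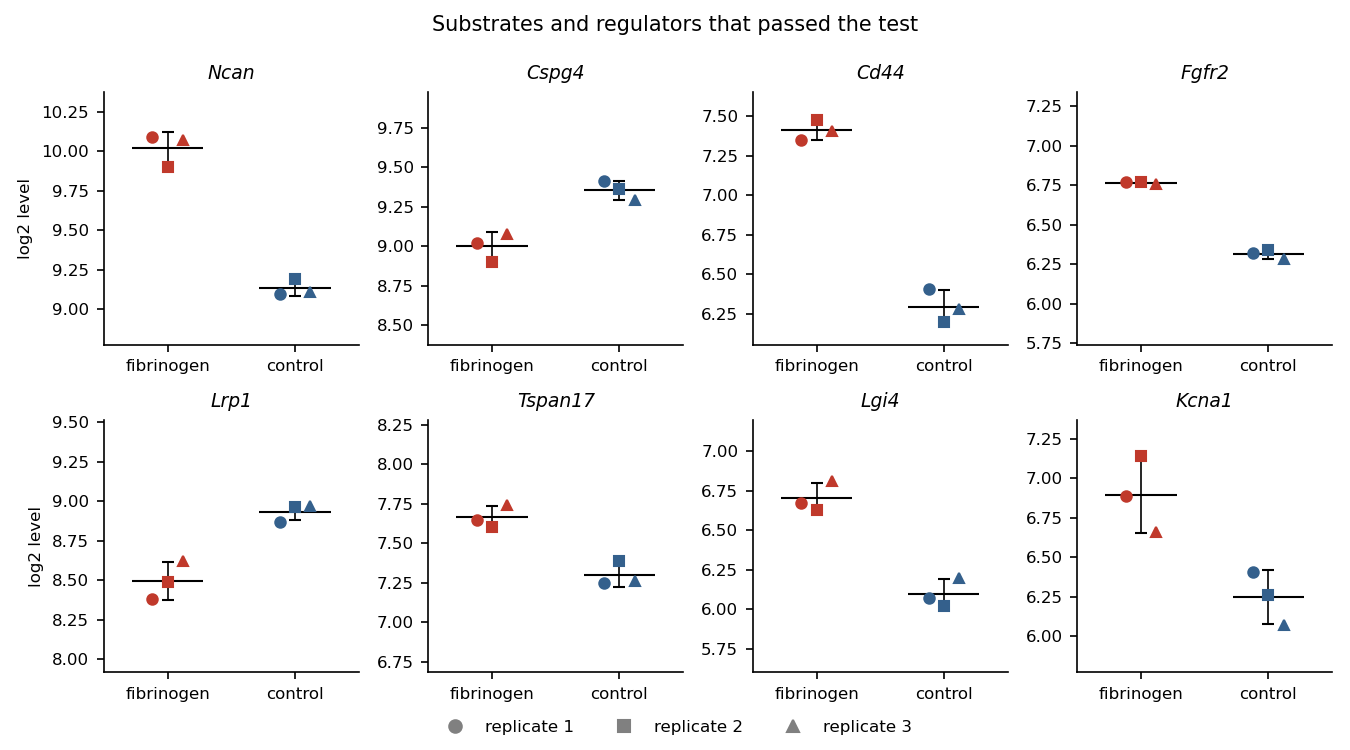
Log2 level (y axis, each panel spanning 1.6 log2 units) of the 8 regulators and substrates that passed the test, on the fibrinogen arrays and the control arrays; points are arrays, the long line is the group mean and the bars are ± 1 SD (n = 3). The groups are apart in all 8, with fibrinogen above control in 6 and below it in Cspg4 and Lrp1.

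Of 24 measured regulators, which activate, inhibit, traffic or clear the enzymes, 1 rose and 1, Lrp1, fell. Tspan17, a tetraspanin that escorts ADAM10 to the cell surface, had log2 levels of 7.65, 7.60 and 7.74 with fibrinogen, against 7.25, 7.39 and 7.26 in controls, and rose 1.29-fold (adjusted p = 0.0414, limma). The call held without fibrinogen replicate 2 and was lost without each other array (adjusted p = 0.0881 to 0.162) as well as after median centring (0.0518) and with the replicate number as a block (0.0860). Of 7 measured LGI ligands and partners of the neural ADAMs, 2 rose. Lgi4, a secreted ligand of ADAM22, had 6.67, 6.63 and 6.81, against 6.07, 6.02 and 6.20 in controls, and rose 1.52-fold (adjusted p = 0.00623). Kcna1, a potassium channel gene, had 6.89, 7.14 and 6.66, against 6.41, 6.26 and 6.07, and rose 1.57-fold (adjusted p = 0.0375), a call that held without fibrinogen replicate 3 and was lost without each other array (adjusted p = 0.0643 to 0.141). A last list held 12 measured proteases outside these families, zinc enzymes except for the aspartic proteases Bace1 and Bace2. Of these 0 passed in limma, with 4 at an unadjusted p under 0.05. The largest difference there was that of Pappa, which cuts IGF-binding proteins, at 0.61 ± 0.15 (SE, adjusted p = 0.0756), followed by Ece1, an endothelin-converting enzyme, at 0.31 ± 0.10 (adjusted p = 0.162).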

How the data were processed

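RNA was measured on 6 Affymetrix arrays. The deposited values were taken as log2 levels normalized by the authors with RMA: the submitters' processing notes name RMA and limma, without versions, and the scale was read from the values. Of 26312 probe sets, the 14700 with values and 1 gene symbol were kept, and per gene the one with the highest mean. The resulting 13949 genes were tested two-sided for fibrinogen minus control in limma 3.58.1 (R 4.3.3), without covariates, at a Benjamini-Hochberg adjusted p of 0.05. Intervals and SE come from that model. The model was also run on simulated data, and the outcome is not reported here. A permutation of 3 against 3 arrays, smallest exact p 0.1, was left out. The alternatives were median centring, no dim genes, means over probe sets, array weights, trended and robust variances, the replicate number as a block, and leaving out each array. The members and lists were chosen with earlier results of these data known. Named were members with an unadjusted p under 0.05, a fixed set (all Timp genes, Mmp2, Mmp9, Mmp14, Adam10, Adam17, Adamts1, Adamts4, Adamts5), the 2 largest differences per role above the receptor percentile, and partner genes that passed or, in a list with none, the 2 largest; other names complete the account and were added after their values were seen. Promoter sequences are from RefSeq (GRCr8); protein features were not analysed here.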

Additional observations from a re-analysis of the deposited data

How the results depend on the processing

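All 13949 genes gave 432 calls in limma, 659 with array weights and 151 to 436 without 1 array (231 and 280 without fibrinogen replicates 1 and 3, 184, 156 and 151 without control replicates 1, 2 and 3). Median centring gave 212 higher and 228 lower in place of 252 and 180. The members' 1 call became 2 without dim genes, 5 with array weights, 2 with trend and robust variances, 2 with the replicate number as a block, and 0 to 4 without 1 array. The partner genes' 8 calls became 13 without dim genes, 15 with array weights and 3 to 7 without 1 array. Timp4 passed under 8 of 12 alternatives, with an adjusted p of 0.00408 to 0.0691. Timp1 also passed with array weights (0.00859) and with trend and robust variances (0.0410), Mmp2 (0.0172) and Adamts5 (0.0318) with array weights, and Adamts9 with array weights (0.0268), with the block (0.0292) and without dim genes (0.0452). Adamts9 is the added call without dim genes; its control arrays lie below the receptor percentile and it was kept there only through its fibrinogen arrays, so that call supports nothing. Alternatives were run one by one for the 30 named members, and among these signs turned in 8, none of which passed: after median centring Adamtsl4 had -0.01 and Mmp14 -0.0167, and with array weights Adamtsl5 had 0.0055. Without 1 array, log2 differences spanned -0.015 to 0.17 for Adam15, -0.0933 to 0.0367 for Adam1a, -0.0567 to 0.0367 for Adamts12, -0.0717 to 0.0733 for Adamtsl4, -0.045 to 0.01 for Adamtsl5, -0.0167 to 0.0383 for Mmp14, -0.145 to 0.0117 for Mmp21 and -0.30 to 0.0783 for Mmp9. The cause of these shifts was not tested, except that fits without 1 array rest on fewer samples. The labels do not say whether same-numbered arrays were paired. Over all genes their deviations correlated at 0.0278, 0.0217 and 0.0109, which cannot settle it, since technical noise was not measured apart from variation between replicates. The block changed the calls of all genes to 315 and those of the partner genes to 7. Mmp13 and Mmp9 have no value without dim genes, since both were left out there. Mean levels not above the receptor percentile limit what can be said of 23 members. Some members counted as above it, such as Adamts9, Mmp19, Adam4l1 and Mmp21, lie close to it and share that limit.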
